A study of Mus musculus with 36 samples.

Results

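The comparison described here set Bhas 42 cells exposed to the phorbol ester TPA (12-O-tetradecanoylphorbol-13-acetate) at 0.05 µg/ml against Bhas 42 cells given its solvent alone, DMSO at 0.1%. Its members are 8 arrays, TPA replicates 1 to 4 and DMSO replicates 1 to 4, chosen by their titles out of 36 arrays in the series. Bhas 42 is a mouse fibroblast line made from BALB/c 3T3 cells by the stable introduction of a viral Ha-ras oncogene, and every group of the series carries it. All cells were seeded at 1460 per cm², grown in medium with 5% serum, treated on day 4 and collected on day 6 after 48 h. The other groups used here were cells given NM-203 silica at 5 µg/cm² with their water control (2%), and cells given Min-U-Sil 5 silica at 20 µg/cm² with a separate water control (2%), again 4 arrays each. The study made 4 independent experiments, and the labels do not say from which of them an array came. p-values therefore measure the spread between these arrays.

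TPA is a stable stand-in for diacylglycerol, the lipid second messenger that binds the C1 domain of conventional and other diacylglycerol-responsive protein kinase C isoforms and brings them to the membrane. Protein kinase C then feeds the Raf, MEK and ERK kinase cascade and the AP-1 transcription factors, dimers of Jun and Fos proteins. Long exposure to TPA is known to deplete the responsive isoforms at the protein level, which an expression array does not measure. TPA is the classical tumour promoter of mouse skin and is used as a positive control in the Bhas 42 transformation assay, in which foci grow from a confluent, growth-arrested monolayer.

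Each value below is the log2 of a probe's signal minus the 75th percentile of its array, so that 0 is the level of a probe at that percentile. A gene was tested when its probe stood well above background on at least 3 of the 4 arrays of some group, and 32365 gene names passed, 17809 of them with a gene symbol. A gene is called changed at an adjusted p under 0.05 in limma's moderated test over all 36 arrays, with Benjamini-Hochberg adjustment over all genes tested. TPA changed 3781 genes by this rule, 11.7% of those tested. Of these, 1584 were higher (4.89%) and 2197 lower (6.79%), so that 41.9% of the calls were rises, and 55.4% when each array was scaled on the median of the tested genes instead, with 1741 calls. The change was at least 2-fold for 896 genes (2.77%), 552 of them higher and 344 lower. All 4 TPA arrays lay above all 4 DMSO arrays for 2587 genes (7.99%) and below them for 3788 (11.7%), the background for the statements on overlap below. The median change over all genes tested was -0.04, and single genes ranged from a 17.5-fold rise to a 15.7-fold fall. In the plot of every gene by its level, the mitosis and replication genes form a band of rises across the whole range of signal.

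Arrays of one group correlated over the tested genes at 0.987 to 0.993 for TPA and 0.981 to 0.988 for DMSO, and arrays of different groups at 0.974 to 0.987. The arrays lay on slides that only partly held both groups. TPA replicates 1 and 4 were on slide 1, DMSO replicates 1, 2 and 4 on slide 2, and slide 3 held TPA replicates 2 and 3 with DMSO replicate 3. Results are therefore also given with slide as a block and within slide 3, where the lone DMSO array is assumed to vary like the other groups. The block gave 3145 calls, 2729 of them in common with the main test and in the same direction, and slide 3 alone 451, with 397 in common. All 8 arrays were scanned on the same day. Fibroblast markers were above background on all 4 DMSO arrays for 12 of 12 genes, with a summed linear signal relative to the 75th percentile of 1024 to 1151 under DMSO and 848 to 923 under TPA. Ptprc, Tyrobp and Mrc1 of the macrophage list, Epcam, Krt19 and Cdh1 of the epithelial list, Tek and Tie1 of the endothelial list, Adipoq and Ms4a1 did not pass the filter. Many markers that passed it were above background on all 4 DMSO arrays. These were 7 of 8 macrophage, 5 of 7 epithelial, 4 of 6 endothelial, 3 of 7 adipocyte and 6 of 7 lymphocyte markers. Summed marker signals overlapped between the groups for the macrophage, epithelial, endothelial, adipocyte and lymphocyte lists. Single markers were called within those lists: Lyz2 and Aif1 (macrophage), Krt8 (epithelial), Cdh5 (endothelial) and Nkg7 (lymphocyte) were lower and Fabp4 (adipocyte) was higher. Of the 12 fibroblast markers, 4 were lower (Col1a1, Dcn, Fap and Lum). The part of these markers in the results was not tested. In an RNA pool from whole cultures, fewer cells making a transcript and less transcript per cell cannot be told apart.

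The cell cycle genes rose together. Of 55 measured genes of G2 and mitosis, 54 were higher under TPA, with a median change of 2.10 against -0.04 for all genes tested. The median was 2.29 with slide as a block and 1.85 within slide 3, where 46 still passed. Of 46 genes of DNA replication and S phase, 41 were higher, with a median of 1.16, and of 1.21 with the block and 1.08 within slide 3, where 11 passed. Knstrn, which helps align chromosomes on the spindle, was the single mitosis gene not called (0.27), and is named because of that value.

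Ccna2 encodes cyclin A, which drives S phase and entry into mitosis. It stood at 3.19, 2.90, 3.35 and 3.53 on TPA replicates 1 to 4 and at 0.86, 0.33, 1.21 and 0.59 on DMSO replicates 1 to 4. Every TPA array lay far above every DMSO array, a rise of 2.50 ± 0.31 (SE), or 5.65-fold, with an adjusted p of 6.0e-07 in limma. Nusap1, a microtubule-bundling protein of the spindle, read 1.56, 1.37, 1.78 and 1.88 under TPA and -1.24, -0.76, -0.73 and -0.78 under DMSO, a 5.75-fold rise (adjusted p = 1.2e-09). Aurka, the kinase of the centrosome, read 3.71, 3.48, 3.74 and 3.76 against 1.27, 0.56, 1.77 and 1.14. Its DMSO arrays spread more than its TPA arrays, and the rise of 2.49 had an SE of 0.54 (adjusted p = 0.0016). Kif18b, a kinesin that shortens microtubule ends, had the largest rise of the list at 7.90-fold, from -2.66, -4.53, -2.26 and -3.25 under DMSO to -0.25, -0.39, -0.21 and 0.08 under TPA. DMSO replicate 2 was the lowest array for Ccna2, Aurka and Kif18b. Kif18b passed the test (adjusted p = 7.9e-04) in the comparison of all arrays and not within slide 3 alone.

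The replication genes rose less far. Mcm5, a subunit of the replicative helicase, read 2.46, 2.32, 2.72 and 2.91 under TPA and 0.45, 0.92, 0.80 and 0.65 under DMSO, a 3.73-fold rise (adjusted p = 3.4e-09). Tk1, thymidine kinase of the S phase cell, read 1.91, 1.80, 2.41 and 2.58 against 0.03, 0.29, 0.24 and 0.04, a 4.07-fold rise (adjusted p = 4.5e-09). TPA replicates 3 and 4 were the higher pair for both genes, and no DMSO array reached any TPA array. Cdc45, which joins the helicase when an origin fires, rose 4.12-fold and Mcm10 4.02-fold. The D-type cyclins of G1 did not rise: Ccnd1 differed by -0.28 without passing the test (adjusted p = 0.11), Ccnd2 fell by 0.51 (adjusted p = 0.0022) and Ccnd3 by 0.28 (adjusted p = 0.03). Those last 2 falls did not pass with slide as a block. Ccne1, cyclin E1 of the entry into S phase, rose by 0.49 (adjusted p = 0.0037), while Ccne2, above background on 1 of 8 arrays, was not called (adjusted p = 0.24). Among inhibitory E2F proteins and pocket proteins, E2f7 rose 2.95-fold, E2f8 5.05-fold and Rbl1 2.48-fold, while Rb1 (-0.02, adjusted p = 0.96) and Rbl2 (0.37, adjusted p = 0.39) were not called. The rise of E2f7 rests on 1 of its 2 probes, since the other differed by 0.03. Ccne1, Ccne2, Rb1 and Rbl2 were added after their values were seen. Of 24 p53 targets, 1 rose and 2 fell, beside 4.89% and 6.79% of all genes tested. The riser was Gtse1, a protein of G2 and S phase cells, at 3.13-fold.

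Promoter sequence was set beside these changes because both gene groups moved almost as a whole. Both lists were taken whole, called or not, so their shares below describe the lists and do not depend on the TPA response. RefSeq promoters (assembly GRCm38.p6, 250 bases before the start and 50 after it) were matched by symbol for 14085 of the 17809 genes. The cell cycle homology region, written here as TTTGAA on either strand, is the element through which the DREAM and MuvB complexes act on mitotic genes. It was in 70.2% of 47 matched mitosis promoters, 16.2% of 37 replication promoters and 16.6% of all matched promoters. CCAAT, the NF-Y box, was in 70.2% of the mitosis promoters and 42.5% of all. An E2F site, searched as TTTGGCGC, TTTCGCGC or TTTCCCGC on either strand, was in 43.2% of the replication promoters (16 of 37), 2.13% of the mitosis promoters and 3.27% of all. Among the promoters of called genes, TTTGAA was in 25.8% of the higher and 12.2% of the lower. CCAAT was in 54.6% and 40.4% of them, and an E2F string in 8.95% and 2.53%. The higher genes include members of both lists. A match is a string of letters and not evidence of binding. The sequences below show these elements in 4 promoters, picked after the changes were seen, each the 250 bases before the start in GRCm38.p6. Ube2c, the ubiquitin-conjugating enzyme of the anaphase-promoting complex (chr2:164769679-164769928, plus strand), and Prc1, which bundles the central spindle (chr7:80294226-80294475, plus strand), carry TTTGAA or its complement and CCAAT or its complement in capitals. Mcm5 (chr8:75109259-75109508, plus strand) and Dtl, an adaptor of the ligase that clears Cdt1 in S phase (chr1:191575545-191575794, minus strand), carry an E2F match in capitals.
Ube2c: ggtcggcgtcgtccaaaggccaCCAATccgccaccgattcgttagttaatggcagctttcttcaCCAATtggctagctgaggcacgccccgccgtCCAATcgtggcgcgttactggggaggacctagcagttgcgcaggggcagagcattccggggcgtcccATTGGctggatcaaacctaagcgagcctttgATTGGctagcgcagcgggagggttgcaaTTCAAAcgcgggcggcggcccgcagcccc
Prc1: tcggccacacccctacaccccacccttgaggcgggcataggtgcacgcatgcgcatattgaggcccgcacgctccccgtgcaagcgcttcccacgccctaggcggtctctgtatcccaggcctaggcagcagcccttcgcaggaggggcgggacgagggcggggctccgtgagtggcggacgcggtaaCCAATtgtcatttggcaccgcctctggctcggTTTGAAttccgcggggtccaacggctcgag
Mcm5: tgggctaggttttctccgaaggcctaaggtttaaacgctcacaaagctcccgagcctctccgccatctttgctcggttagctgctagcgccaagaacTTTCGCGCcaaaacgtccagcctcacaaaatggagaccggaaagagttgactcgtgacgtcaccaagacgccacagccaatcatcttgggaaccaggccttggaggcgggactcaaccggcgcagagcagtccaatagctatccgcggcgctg
Dtl: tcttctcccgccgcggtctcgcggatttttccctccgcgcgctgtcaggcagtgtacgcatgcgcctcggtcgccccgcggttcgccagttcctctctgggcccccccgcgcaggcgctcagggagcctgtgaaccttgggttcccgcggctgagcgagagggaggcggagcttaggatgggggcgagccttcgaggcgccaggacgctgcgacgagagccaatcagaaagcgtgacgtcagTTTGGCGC

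**Figure D1:**
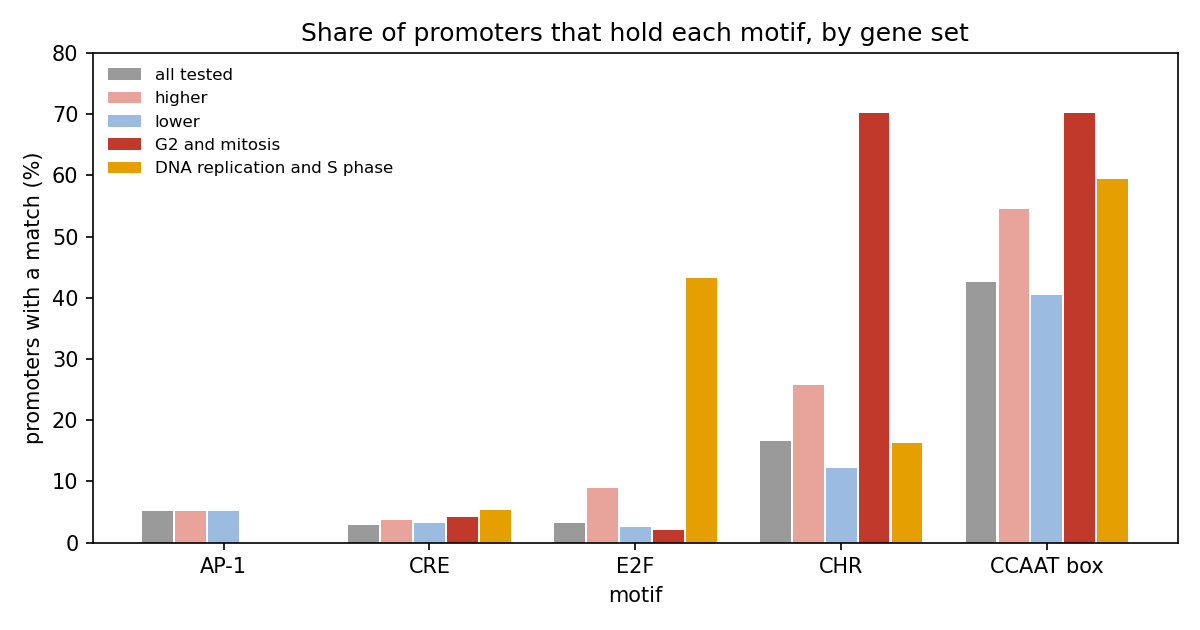
Share of promoters (vertical axis, percent of 300-base promoters) that hold each of 5 motifs on either strand (horizontal axis), for all matched genes, the called higher and lower genes, and the mitosis and replication lists. TTTGAA reaches 70.2% in the mitosis list and the E2F strings 43.2% in the replication list, while the AP-1 string TGAGTCA lies near 5% in the first 3 sets and at 0 in the other two.

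The largest rises of the whole comparison were in the proliferins, placental prolactin-like hormones that growth factors and phorbol esters are known to switch on in mouse fibroblasts. Prl2c3 read 0.49, 0.46, 0.71 and 0.80 under TPA and -3.72, -3.34, -3.14 and -3.84 under DMSO, a rise of 4.13 ± 0.20 (SE) or 17.5-fold (adjusted p = 4.4e-15 in limma). Prl2c1 read 3.52, 3.72, 3.90 and 3.65 against 0.13, 0.30, 0.37 and 0.01 (11.3-fold, adjusted p = 8.4e-16). Prl2c5 read 4.94, 4.68, 5.09 and 5.02 against 1.28, 1.61, 1.59 and 1.27 (11.3-fold, adjusted p = 8.4e-16). The groups were separated by more than 3 log2 units on these 3 probes, also within slide 3. The genes are near-identical copies whose transcripts may bind one another's probes, so the 3 values may not be separate. Of the 5 measured prolactin-family genes, Prl3d1 was not called (0.59, adjusted p = 0.22) and Prl2a1 was not above background on any of the 8 arrays. The promoters of Prl2c3 (chr13:12800080-12800329, minus strand) and Prl2c5 (chr13:13182466-13182715, plus strand) show how close the copies are. Their 250 bases before the start were 96.0% identical, with 241 identical, 8 mismatched and 2 gapped positions, and are printed whole in lower case because neither holds TGAGTCA.
Prl2c3: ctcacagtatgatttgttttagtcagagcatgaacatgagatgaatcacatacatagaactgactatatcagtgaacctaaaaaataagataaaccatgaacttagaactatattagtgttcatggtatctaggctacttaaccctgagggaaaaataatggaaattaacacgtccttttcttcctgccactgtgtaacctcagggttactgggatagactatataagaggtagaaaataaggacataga
Prl2c5: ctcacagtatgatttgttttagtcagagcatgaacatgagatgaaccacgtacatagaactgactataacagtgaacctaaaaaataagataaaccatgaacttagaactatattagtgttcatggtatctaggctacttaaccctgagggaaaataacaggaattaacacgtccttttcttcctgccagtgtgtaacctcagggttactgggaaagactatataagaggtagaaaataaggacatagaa

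Other genes with the largest rises had varied roles. Nlrp2, a member of the NLR family of cytoplasmic proteins, read -1.04, -1.06, -0.56 and -0.71 under TPA and -4.74, -3.94, -3.92 and -4.19 under DMSO, a 10.2-fold rise (adjusted p = 8.9e-11). Ccn5, a matricellular protein also called Wisp2, read 2.84, 2.83, 3.04 and 3.08 against 0.33, 0.48, 0.56 and 0.30, a 5.76-fold rise with little spread in either group (adjusted p = 4.0e-13). Fancd2, of the interstrand crosslink repair pathway, rose from -5.58, -5.28, -4.46 and -5.27 to -2.69, -2.77, -2.29 and -2.28 (adjusted p = 1.6e-08), and no fold is given because it stood above background on 1 of 4 DMSO arrays. The kinetochore and spindle genes Kntc1, Ska3, Cdca2 and Fam83d rose 6.90-, 6.04-, 6.02- and 5.95-fold. The other probe of Ska3 differed by 0.99. A further set was not above background on any DMSO array, so its folds are lower bounds, set against the lowest signal well above background or the probe's own. Efcab11 was at least 6.56-fold higher, the transcription factor Wt1 at least 4.84-fold, Il18rap, a subunit of the interleukin-18 receptor, at least 4.06-fold, and Pid1 at least 3.79-fold.

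**Figure D2:**
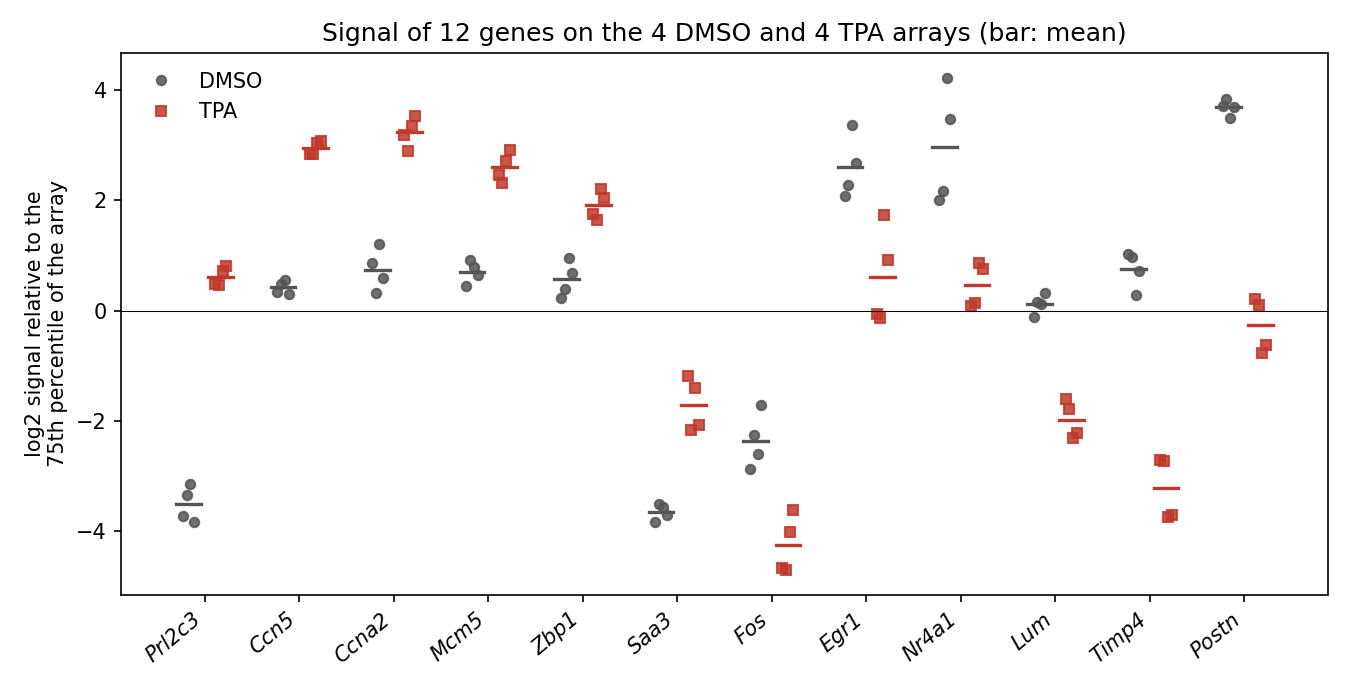
Signal of 12 genes on each of the 4 DMSO and 4 TPA arrays (vertical axis, log2 relative to the 75th percentile of the array), with a bar at each group's mean. Prl2c3, Ccn5, Ccna2, Mcm5, Zbp1 and Saa3 are higher on every TPA array, and Fos, Egr1, Nr4a1, Lum, Timp4 and Postn lower on every TPA array.

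Genes for protein kinase C, other diacylglycerol-responsive proteins and substrates of the kinase were lower or not called. Of 22 measured, atypical isoforms and both Marcks genes included, 5 fell and none rose (7 and 0 at an unadjusted p under 0.05 in limma), with a median of -0.17 (-0.20 with the slide block, -0.23 within slide 3, where none passed). Prkca, the conventional alpha isoform, read 1.12, 1.25, 1.35 and 1.36 under TPA and 1.68, 1.61, 1.79 and 1.96 under DMSO, and each TPA array lay below each DMSO array. It fell by 0.49 (adjusted p = 0.003) on the probe used, while its other probe differed by -0.05. Marcks, a membrane protein that is the best-known substrate of the kinase, fell by 0.36 (adjusted p = 0.007) and its relative Marcksl1 by 0.63. The other probe of Marcks differed by -0.08. Prkd2, a protein kinase D, fell by 0.43, and Unc13b, a C1-domain protein of vesicle priming, by 0.83. The isoform genes Prkcd (-0.22, adjusted p = 0.23) and Prkch (-0.86, 0.38) and the atypical Prkci (-0.09, 0.58) were not called, and neither were Prkcb (0.82, 0.35), Prkce (0.32, 0.75) and the atypical Prkcz (0.31, 0.42), whose differences were above 0. With the tested-gene median for scaling, Unc13b was the single one of the 5 that passed. With the mean over all probes of a gene, 3 genes of the list were lower.

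Of 14 measured AP-1 subunits, 2 rose and 1 fell, where 4.89% and 6.79% of all genes tested did so. Their median was -0.04, as it was over all genes tested. Fos read -4.67, -4.71, -4.02 and -3.62 under TPA and -2.87, -2.26, -2.61 and -1.71 under DMSO, a fall of 1.89 ± 0.24 (SE), 3.71-fold, with no overlap (adjusted p = 9.2e-07). Jun read 3.39, 3.71, 3.85 and 3.93 against 3.10, 3.12, 3.46 and 3.46, a rise of 0.43 in which the groups overlapped (adjusted p = 0.012). Junb read 3.08, 2.94, 3.60 and 3.62 against 2.25, 2.39, 3.06 and 3.14, also with overlap, a rise of 0.60 (adjusted p = 0.027). In both groups replicates 3 and 4 were above replicates 1 and 2 for Junb. Neither rise passed within slide 3, and the rise of Junb did not pass with slide as a block. The other 11 of 14 were not called: the difference was 0.66 for Fosl1 (adjusted p = 0.078), 0.28 for Fosl2, -0.14 for Fosb and 0.05 for Jund. TGAGTCA, the TPA response element, was in 5.24% of the promoters of genes called higher, 5.22% of those called lower and 5.18% of all. It was in none of the 47 mitosis and 37 replication promoters, and TGACGTCA, the related cyclic AMP element, was in 3.71%, 3.26% and 2.95% of the first 3 sets. Of 158 named and called genes with a promoter, 8 held TGAGTCA in the 250 bases before the start. Ptgds, which fell, and Oas3, which rose, both described further on, are shown as an example of each direction, with the match or its complement in capitals (chr2:25469750-25469999, minus strand and chr5:120777660-120777909, minus strand). P2ry14, with a somewhat larger rise than Oas3, also held the string, but its DMSO replicate 3 lay within the TPA range.
Ptgds: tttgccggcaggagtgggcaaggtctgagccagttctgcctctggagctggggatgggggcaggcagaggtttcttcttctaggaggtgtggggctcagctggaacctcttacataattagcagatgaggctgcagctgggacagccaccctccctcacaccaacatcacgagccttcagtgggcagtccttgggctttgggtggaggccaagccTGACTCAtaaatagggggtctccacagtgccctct
Oas3: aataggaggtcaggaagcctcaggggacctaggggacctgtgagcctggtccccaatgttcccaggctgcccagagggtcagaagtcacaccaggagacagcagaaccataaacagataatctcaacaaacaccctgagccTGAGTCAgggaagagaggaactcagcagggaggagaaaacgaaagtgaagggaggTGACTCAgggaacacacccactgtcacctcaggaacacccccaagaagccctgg

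Immediate early genes, the first to answer growth factors through ERK, were lower more often than higher at 48 h where they were called. Of 21 measured, 8 fell, 2 rose and 11 were not called, with a median of -0.31 (-0.43 with the slide block, -0.32 within slide 3, where 3 fell). Nr4a1, an orphan nuclear receptor, read 0.08, 0.14, 0.87 and 0.75 under TPA and 2.00, 2.18, 4.23 and 3.48 under DMSO, a 5.71-fold fall (adjusted p = 9.8e-07). Egr1, a zinc-finger factor induced by serum, read -0.07, -0.13, 1.73 and 0.92 against 2.07, 2.28, 3.36 and 2.68, a 3.96-fold fall (adjusted p = 3.4e-05). Egr2 read -1.28, -1.37, 0.38 and -0.33 against -0.12, 0.26, 2.07 and 1.06, a fall of 1.46 with overlap (adjusted p = 0.0069). For these 3 genes replicates 3 and 4 lay above replicates 1 and 2 in both groups. Srf, the serum response factor itself, fell by 0.75, Ier2 by 0.74, Ier3 by 0.50 and Plk3 by 0.78. Btg2 fell by 0.66 on the probe used, while its probes differed in sign. Myc rose by 0.79 (adjusted p = 0.011) and Nr4a2 by 0.53 (adjusted p = 0.0087), and the rise of Myc did not pass with slide as a block.

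Some genes that limit ERK or respond to it were lower too. Of 20 ERK feedback and output genes, 6 fell, 1 rose and 13 were not called, with a median of -0.30 (-0.33 with the block, -0.30 within slide 3, where 1 fell). Dusp2, a nuclear ERK phosphatase, read -2.60, -2.81, -2.47 and -2.25 under TPA and -1.29, -1.16, -1.50 and -0.82 under DMSO, a 2.54-fold fall with no overlap (adjusted p = 1.8e-07), and it was the one that passed within slide 3. Epha2, an ephrin receptor kinase whose gene answers to Ras and ERK, read 0.16, 0.14, 0.34 and 0.49 against 1.48, 1.39, 1.55 and 1.70, a 2.38-fold fall (adjusted p = 2.2e-06). Dusp6, the cytoplasmic ERK phosphatase, fell by 0.89, Dusp1 by 0.62, and the ETS factors Etv5 and Etv1 by 0.70 and 0.60. Dusp10, a phosphatase with a preference for JNK and p38, rose by 0.64 (adjusted p = 4.7e-05). Spry2 (-0.08, adjusted p = 0.73) and Dusp4 (0.14, 0.72) were not called. In the Ras and Raf list, 2 of 21 rose and 1 fell, beside 4.89% and 6.79% of all genes tested. Rasal2 rose by 0.74 and Map2k1 by 0.37. Nras fell by 0.34, close to the threshold (adjusted p = 0.045), while its other probe differed by -0.02. The fall of Nras did not pass in 17 of the alternative settings.

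Growth factor genes changed in both directions, also within families. Ereg, epiregulin, a soluble ligand of the EGF receptor, read -1.84, -1.84, -1.46 and -1.29 under TPA and -2.76, -2.40, -2.42 and -2.46 under DMSO, a 1.87-fold rise with no overlap (adjusted p = 2.2e-05). Nrg1 rose by 0.30, close to the threshold (adjusted p = 0.043), and Erbb2, the shared receptor partner, fell by 0.53 (adjusted p = 3.2e-04). The other 11 of 14 EGF family genes, among them Hbegf (0.18) and Egfr (0.28), were not called, and the probes of Egfr differed in sign. Pdgfa read 3.26, 3.40, 3.24 and 3.07 against 4.21, 4.38, 4.04 and 4.18 and fell by 0.96 (adjusted p = 2.0e-04). Pdgfb fell by 0.80 and Vegfc, of lymphatic growth, by 0.58, while Pdgfc rose by 0.64 (adjusted p = 1.6e-04). Fgf21, above background on 4 of 4 TPA arrays and 1 of 4 DMSO arrays, passed as higher (adjusted p = 0.027) and did not pass with slide as a block. In the insulin-like growth factor axis, Igfbp6, a binding protein of IGF-II, rose 1.85-fold. Pappa, a protease that releases IGF from its binding proteins, read -5.51, -6.92, -5.96 and -7.81 against -2.83, -3.06, -3.36 and -3.36, a fall (adjusted p = 5.9e-08) for which no fold is given, since it stood above background on 1 of 4 TPA arrays.

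Interferon-stimulated genes rose in part. Of 30 measured, 16 were higher and 1 lower, with a median of 0.49 (0.66 with the slide block, where 23 rose, and 0.29 within slide 3, where 1 rose). Zbp1, a sensor of left-handed nucleic acid, read 1.75, 1.64, 2.21 and 2.04 under TPA and 0.23, 0.40, 0.96 and 0.68 under DMSO, a 2.54-fold rise with no overlap (adjusted p = 1.8e-06). Oas3, an enzyme that makes the activator of RNase L, read -0.90, -1.32, -0.85 and -0.88 against -2.13, -2.63, -1.90 and -2.04, a 2.28-fold rise (adjusted p = 1.0e-04). Oasl1 rose 2.20-fold and Ifit3 1.94-fold. Ifi27 fell by 0.37 (adjusted p = 0.031), while its other probe differed by -0.11, and its fall did not pass in 13 of the alternative settings. With the tested-gene median for scaling, 7 of the 30 genes were higher.

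Chemokines moved both ways, with 6 of 19 called higher and 5 called lower, 1 of the latter, Ackr4, without a signal above background on any of the 8 arrays. Ccl8, a monocyte attractant, read 2.05, 2.14, 2.64 and 2.46 under TPA and 0.20, 0.63, 1.38 and 0.90 under DMSO, a 2.92-fold rise (adjusted p = 1.1e-04). Ccl7, its close relative, rose 2.18-fold, Cxcl10 2.22-fold and Ccl11 2.15-fold. Cx3cl1, fractalkine, read 2.26, 2.29, 2.03 and 2.22 against 3.18, 3.21, 3.23 and 3.50, a 2.11-fold fall with no overlap (adjusted p = 4.3e-07), and Ccl17 fell by 0.67. None of the 6 rises passed within slide 3. Of 20 NF-kB subunits and targets, 3 rose and 2 fell. Saa3, an acute-phase serum amyloid, read -1.19, -2.17, -1.41 and -2.07 against -3.84, -3.51, -3.56 and -3.71, a 3.84-fold rise (adjusted p = 5.8e-06). Bcl3, an atypical I-kB protein, rose 1.71-fold and Lcn2, an iron-carrier binding protein, 1.67-fold. Sod2 fell by 0.47 and Vcam1 by 0.38, and neither fall passed with the tested-gene median for scaling.

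Prostaglandin genes fell, where they were called, among genes of synthesis as well as receptors, but 11 of 17 were not called. The list median was -0.08 against -0.04 for all genes tested, -0.27 with the slide block and 0.08 without DMSO replicate 4. Of 17 measured, 6 were lower, 3 with the tested-gene median for scaling and 1 within slide 3. Ptgds, the synthase of prostaglandin D2, read -0.46, -0.10, -1.22 and -1.15 under TPA and 0.80, 1.04, 1.04 and 1.05 under DMSO, a 3.28-fold fall (adjusted p = 1.1e-05). Ptger1, a receptor of prostaglandin E2, read -4.35, -4.86, -4.39 and -4.68 against -2.65, -2.85, -3.39 and -2.92, a 3.06-fold fall (adjusted p = 1.4e-06). Ptgir, the prostacyclin receptor, fell 2.37-fold and Ptger4 by 0.67. TPA replicates 3 and 4 were the lower pair for Ptgds, and no TPA array reached the lowest DMSO array for Ptgds, Ptger1 or Ptgir. Of 16 complement genes, 4 fell, with a median of -0.32, and none passed within slide 3. Clu, clusterin, fell 1.90-fold (adjusted p = 6.1e-05), Cfb, of the alternative pathway, by 0.77, and the membrane inhibitor Cd59a by 0.74.

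**Figure D3:**
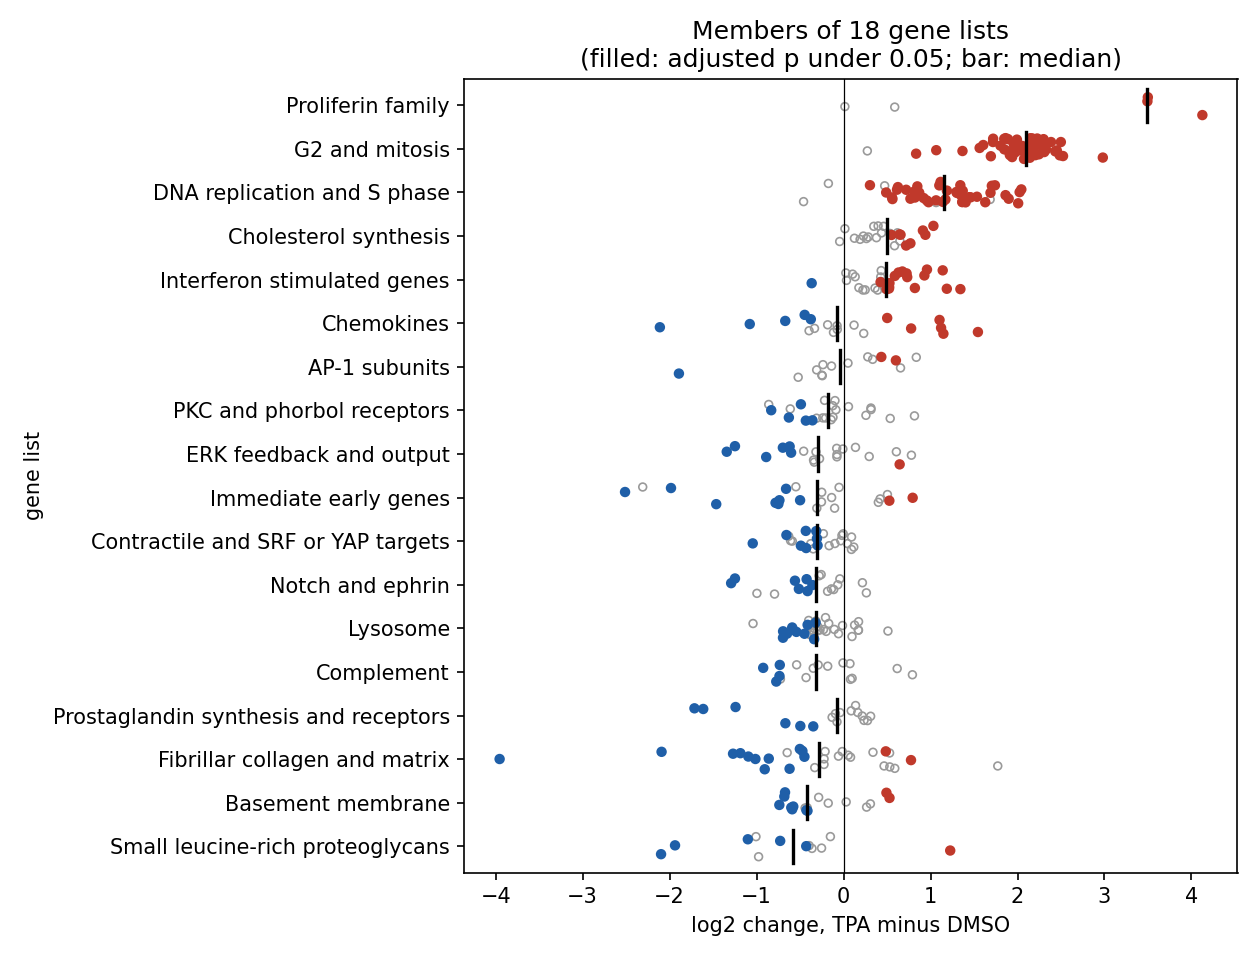
Log2 change (TPA minus DMSO, horizontal axis) of each measured member of 18 gene lists (vertical axis), filled where the adjusted p was under 0.05, red for rises and blue for falls, with a bar at each list's median. The medians run from 3.49 for the proliferin family and 2.10 for G2 and mitosis down to -0.58 for the small leucine-rich proteoglycans.

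Matrix genes fell unevenly. Of 30 fibrillar collagen and matrix genes, 12 were lower and 2 higher, with a median of -0.28 (-0.28 with the slide block, -0.31 within slide 3, where 5 fell). Postn, periostin, a matrix protein of remodelling connective tissue, read 0.21, 0.10, -0.77 and -0.62 under TPA and 3.70, 3.85, 3.49 and 3.70 under DMSO. The TPA arrays lay at least 3 log2 units below the DMSO arrays, a 15.5-fold fall of 3.95 ± 0.23 (SE, adjusted p = 7.5e-13). Sparcl1, an anti-adhesive relative of osteonectin, read 0.68, 0.85, 0.40 and 0.51 against 2.64, 2.65, 2.54 and 2.97, a 4.27-fold fall (adjusted p = 1.1e-09). Thbs1, thrombospondin 1, fell 2.41-fold and Col5a2, of the fibril-nucleating collagen V, 2.28-fold. Col1a1, the main fibrillar collagen chain, read 6.18, 6.13, 6.36 and 6.14 against 6.70, 6.72, 6.69 and 6.71 and fell by 0.50 (adjusted p = 1.1e-04). Col12a1, a collagen on the fibril surface, rose by 0.78 (adjusted p = 3.5e-05), and Mfap5 of the microfibril by 0.49. The other probe of Col12a1 differed by 0.20.

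The small proteoglycans that coat collagen fibrils had a median of -0.58, with 5 of 12 lower and 1 higher (-0.73 with the block, -0.50 within slide 3, where 2 fell). Lum, lumican, read -1.61, -1.79, -2.31 and -2.22 under TPA and -0.11, 0.15, 0.11 and 0.32 under DMSO, a 4.28-fold fall (adjusted p = 5.2e-10). Kera, keratocan, fell 3.83-fold (adjusted p = 6.2e-09) and Aspn, asporin, 2.14-fold. Omd, osteomodulin, went the other way, from -1.66, -1.63, -1.20 and -1.60 to -0.36, -0.59, -0.15 and -0.09, a 2.34-fold rise (adjusted p = 1.8e-04). Dcn, decorin, fell by 0.43, which did not pass with the block. Of 17 basement membrane genes, 8 fell and 2 rose, with a median of -0.42 (-0.36 with the block, -0.39 within slide 3, where none passed). Lama2 fell by 0.74, Col4a2 by 0.68 and Lamc1 by 0.67, while Nid1, the laminin linker, rose by 0.53. With the tested-gene median for scaling, 2 were lower.

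Among genes of matrix proteases and their inhibitors, several of them textbook targets of TPA, called changes at 48 h were more often falls. Of 19 metalloproteinases and inhibitors, 1 rose and 4 fell, where 4.89% and 6.79% of all genes tested did so. Mmp3 (stromelysin 1) differed by -0.44 (adjusted p = 0.26), Mmp13 (collagenase 3) by 0.27 (0.48) and Mmp10 by 0.90 (0.057), none of them called. Mmp9, gelatinase B, fell by 0.64 (adjusted p = 0.026), without passing with slide as a block, and Mmp14, the membrane-type enzyme, by 0.65 (adjusted p = 0.0046). Among the inhibitors, Timp4 had the largest fall of the whole comparison. It read -2.71, -2.73, -3.75 and -3.70 under TPA and 1.03, 0.98, 0.28 and 0.72 under DMSO, a 15.7-fold fall of 3.98 ± 0.26 (SE, adjusted p = 7.3e-12). Replicates 3 and 4 were about 1 log2 unit below replicates 1 and 2 under TPA, and all 4 were well below every DMSO array. Timp1 rose by 0.51, from 3.46, 3.50, 3.15 and 3.31 to 3.63, 3.74, 4.13 and 3.95 (adjusted p = 0.0035), and Reck, a membrane-bound inhibitor, fell by 0.59. Of 12 plasminogen system genes, Serpinb9, a granzyme B inhibitor, was the single one called, with a fall of 0.77 (adjusted p = 4.9e-06). Plaur, the urokinase receptor, differed by -0.15 (adjusted p = 0.61) and was not called.

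Hyaluronan, integrin and junction genes changed in both directions. Hmmr, a hyaluronan and spindle protein also on the mitosis list, rose 3.77-fold, and Has2, the main hyaluronan synthase of fibroblasts, 1.86-fold (adjusted p = 0.0074), from -3.67, -3.07, -2.80 and -2.86 to -2.36, -2.97, -1.88 and -1.62, with overlap. Of 15 integrins, 2 rose and 4 fell. Itgb7, a beta chain best known from lymphocytes, read -0.74, -0.74, -0.27 and -0.29 under TPA and -2.21, -2.07, -2.27 and -2.14 under DMSO, a 3.16-fold rise with no overlap (adjusted p = 4.4e-09). Itga10, a collagen-binding chain, fell 2.66-fold and Itga6, a laminin-binding chain, 1.80-fold, while the 3 probes of Itga6 ranged from -0.85 to -0.09. Gja1, the gap junction protein connexin 43, read -2.40, -2.06, -1.79 and -1.87 against -3.28, -2.64, -2.93 and -3.10, a 1.94-fold rise (adjusted p = 1.7e-04). Cdh2, N-cadherin, fell by 0.57 and Ncam1 by 0.45, while the 4 probes of Ncam1 ranged from -0.45 to -5.4e-04. Cdh5, a cadherin of endothelium, was above background on all 4 DMSO arrays and on no TPA array, at least 3.76-fold lower.

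Contractile genes and the Notch and ephrin genes leaned downward by small amounts, while other signalling lists had calls in both directions. Of 23 contractile and SRF or YAP target genes, 8 fell, with a median of -0.31 (-0.33 with the block, -0.21 within slide 3, where 1 fell), and 2 were lower with the tested-gene median for scaling. Myl9, the regulatory myosin light chain, read 5.39, 5.35, 5.48 and 5.31 under TPA and 6.53, 6.61, 6.20 and 6.36 under DMSO, a 2.06-fold fall with no overlap (adjusted p = 1.1e-07). Acta2, smooth muscle actin, fell by 0.66 (adjusted p = 0.0024) and Vcl, vinculin, by 0.43. Of 18 Notch and ephrin genes, 7 fell, with a median of -0.32. Under that scaling 2 of them were lower, and none passed within slide 3. Hes1, a repressor switched on by Notch, fell 2.45-fold (adjusted p = 6.8e-04) and Jag1, a Notch ligand, by 0.51. Of 31 genes of TGF-beta, BMP and Id proteins, 3 rose and 5 fell, with a median of -0.12 against -0.04 for all genes tested. Tgfb2 fell by 0.94 and the BMP-induced repressor Id1 by 0.75, while Grem1, a secreted BMP antagonist, rose by 0.52 and Skil, an inhibitor of Smad proteins, by 0.77. The 23 Wnt genes also had a median of -0.12. Of these, 2 rose and 5 fell, among them the co-receptor Lrp6 with a fall of 0.73 and Ccn5, described above. Cav1, caveolin 1, rose 1.91-fold, and Mertk, a receptor of the growth arrest protein Gas6, fell 2.18-fold.

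Metabolic genes showed a limited rise in sterol synthesis. Of 24 cholesterol synthesis genes, 8 rose, with a median of 0.50 (0.73 with the slide block, where 15 rose, and 0.43 within slide 3, where none passed). Nsdhl read 1.38, 1.13, 1.46 and 1.89 under TPA and 0.07, 0.50, 0.62 and 0.54 under DMSO, a 2.05-fold rise with no overlap (adjusted p = 3.5e-04), and Fdps, the farnesyl diphosphate synthase, rose by 0.77. With the tested-gene median for scaling, 1 was higher. Of 34 lysosome genes, 9 fell, with a median of -0.32, and 1 was lower under that scaling. Man2b1 fell by 0.70 and Neu1 by 0.70. Of 30 glycolysis and hypoxia genes, 5 rose and 4 fell. Pkm, pyruvate kinase, read 5.72, 5.75, 5.87 and 5.85 against 5.14, 5.19, 5.03 and 5.07 and rose by 0.69 (adjusted p = 8.0e-05), and Pfkfb3 rose by 0.82, while Hk2, hexokinase 2, fell by 0.93 and Car9 by 0.92. Fabp4, a fatty acid carrier of adipocytes and macrophages, was above background on all TPA arrays and on no DMSO array, at least 3.52-fold higher, while the adipocyte gene Adipoq did not pass the filter.

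Most genes of the stress lists were not called. Of all genes tested, 4.89% were called higher and 6.79% lower. Of 35 NRF2 antioxidant genes, 6 rose and 2 fell, with a median of -0.02. Slc7a11, the cystine importer, read -2.72, -3.58, -2.82 and -2.65 under TPA and -4.92, -4.81, -3.92 and -4.20 under DMSO, a 2.87-fold rise (adjusted p = 0.0018), and Gclm of glutathione synthesis rose by 0.42, while Hmox1 fell by 0.54. Of 33 genes of the unfolded protein and integrated stress responses, 3 rose, Slc7a11 and the serine and one-carbon enzymes Psat1 (1.90-fold) and Shmt2 (1.69-fold). Of 18 heat shock chaperones, 1 rose and 3 fell, by at most 0.57 (Hspa4l). Of 10 metallothionein and zinc genes none was called in limma, with 4 lower at an unadjusted p under 0.05.

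Several of the largest falls were in genes outside these lists. Mlana, known as the melanocyte protein melan-A, read -2.37, -2.50, -3.52 and -3.39 under TPA and 0.31, 0.39, 0.11 and 0.15 under DMSO, a 9.10-fold fall (adjusted p = 2.2e-10). Enpp2, autotaxin, the secreted enzyme that makes lysophosphatidic acid, read 0.35, 0.13, -0.61 and -0.42 against 2.57, 2.65, 2.71 and 2.78, a 7.04-fold fall (adjusted p = 1.6e-10). On both probes TPA replicates 3 and 4 were lower than replicates 1 and 2, and all 4 were below every DMSO array. The organic anion carrier Slco2b1 fell 6.63-fold, the BMP antagonist Chrdl2 5.91-fold (above background on 2 of 4 TPA arrays), Cib3 5.80-fold and Dmrtc1c2 5.57-fold. Ucma, a cartilage matrix protein, was above background on no TPA array and at least 8.14-fold lower, Apobec2 at least 5.97-fold, Chrng, the gamma subunit of the fetal muscle acetylcholine receptor, at least 4.95-fold and Tinag at least 3.28-fold. The fibroblast activation protein gene Fap was at least 3.13-fold lower.

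The TPA effect was set against the effects of silica by testing the difference of the effects themselves. Each was taken against its own solvent control, so that the compared effects share no control array, while both differences use the same TPA and DMSO arrays. The Min-U-Sil 5 arrays and their water arrays were on slides 4 and 5, scanned on day 2, and the TPA and DMSO arrays were scanned on day 1. That difference therefore crosses scan days. Replicate 1 of NM-203 at 5 µg/cm² was also scanned on day 2, its water arrays on day 1. The TPA effect differed from that of NM-203 at 5 µg/cm² for 4799 genes, 14.8% of those tested, and from that of Min-U-Sil 5 for 1907 genes, 5.89%. With scan day as a block these counts were 4551 and 1984. The mitosis list had medians of 2.10 under TPA, 2.00 under NM-203 and 1.58 under Min-U-Sil 5. The TPA effect was smaller than that of NM-203 in 2 of 55 and larger than that of Min-U-Sil 5 in 5. For the replication list the medians were 1.16, 1.80 and 1.40, and the TPA effect was smaller than that of NM-203 in 20 of 46 and smaller than that of Min-U-Sil 5 in 1.

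Ribosome biogenesis was the list with the largest share of members whose TPA and NM-203 effects differed. Its median was 0.14 under TPA, with 4 of 25 genes higher, and 1.27 under NM-203 and 1.01 under Min-U-Sil 5. The TPA effect was smaller than that of NM-203 in 24 of 25 genes and smaller than that of Min-U-Sil 5 in 23. Dkc1, the pseudouridine synthase of ribosomal RNA, had an effect of 0.63 under TPA, 1.61 under NM-203 and 1.36 under Min-U-Sil 5. Ddx21, a nucleolar helicase, had effects of 0.62, 2.53 and 2.07. For the unfolded protein and integrated stress list the medians were -0.08, 0.52 and 0.21, with a smaller TPA effect than NM-203 in 16 of 33 genes and than Min-U-Sil 5 in 10. Interferon-stimulated genes had medians of 0.49, 1.09 and 0.27, and the TPA effect was below that of NM-203 in 16 of 30.

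Many matrix genes fell less under TPA than under silica. The small proteoglycans had medians of -0.58 under TPA, -1.73 under NM-203 and -1.61 under Min-U-Sil 5, the basement membrane list -0.42, -1.24 and -1.07, and the fibrillar list -0.28, -1.17 and -0.80. The TPA effect lay above that of NM-203 in 9 of 12, 13 of 17 and 16 of 30 of these genes, and above that of Min-U-Sil 5 in 4, 7 and 11, which leaves most members of each list without a called difference from Min-U-Sil 5. In the fibrillar list 1 gene, Thbs1, went the other way against both silicas, with effects of -1.27, -0.09 and -0.37 (difference from NM-203 -1.18, adjusted p = 6.1e-04). Postn had effects of -3.95, -3.47 and -3.70, without a called difference from NM-203 (adjusted p = 0.43) or Min-U-Sil 5 (0.86). Lum had an effect of -2.10 under TPA, -3.17 under NM-203 and -2.40 under Min-U-Sil 5. Its difference from NM-203 passed (adjusted p = 0.0021), and that from Min-U-Sil 5 did not (0.66). The ERK feedback list went the other way, with medians of -0.30, 0.02 and 0.12 and a lower TPA effect than NM-203 in 10 of 20 genes and than Min-U-Sil 5 in 8. Dusp6 had effects of -0.89, -0.18 and -0.24, and the difference from NM-203 was -0.71 (adjusted p = 0.04). Prl2c1 and Prl2c5 rose less under TPA than under NM-203, with effects of 3.50 against 4.32 for Prl2c1 (adjusted p of the difference = 0.0072) and a difference of -0.71 for Prl2c5 (adjusted p = 0.025), while the difference for Prl2c3, with 4.13 against 4.59, did not pass (adjusted p = 0.33).

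**Figure D4:**
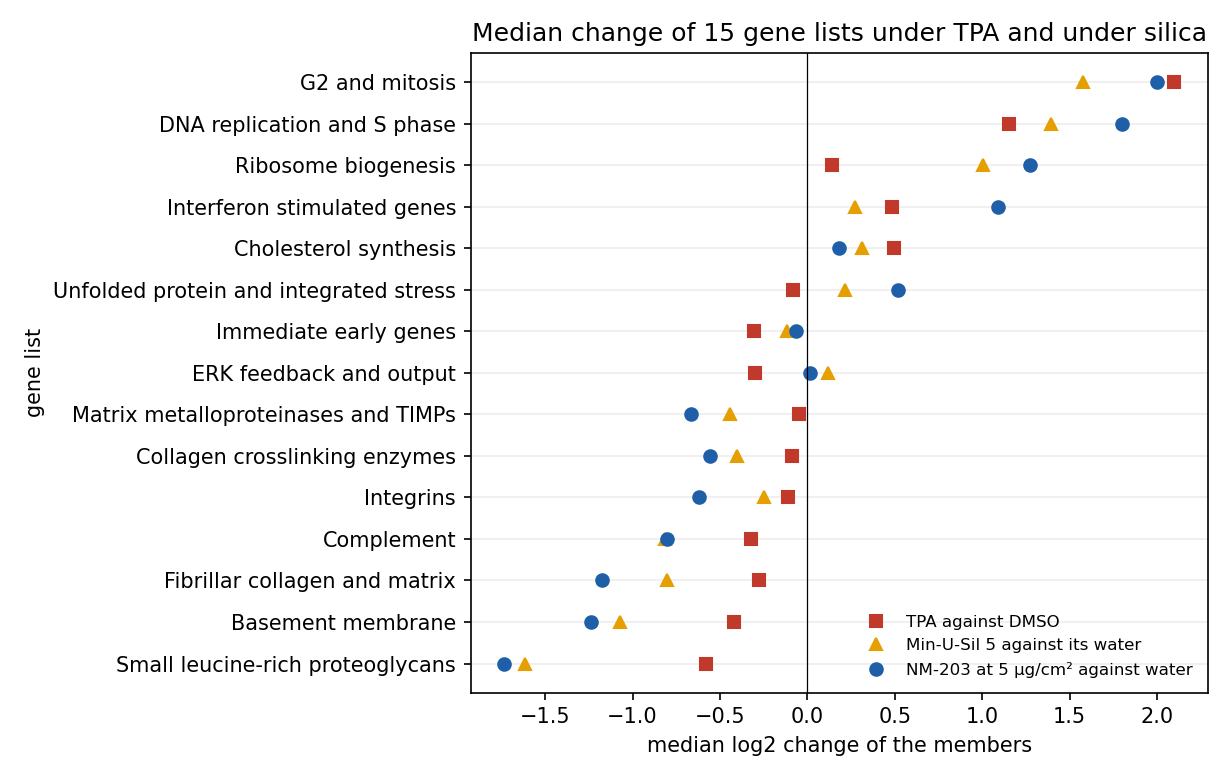
Median log2 change of the measured members (horizontal axis) of 15 gene lists (vertical axis) under TPA, NM-203 at 5 µg/cm² and Min-U-Sil 5, each against its own solvent control with 4 arrays per group. For ribosome biogenesis the TPA median of 0.14 lies far below the silica medians of 1.27 and 1.01, and for the 3 matrix lists the TPA median lies nearest to 0.

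Single genes showed the contrasts in size. Il33, an alarmin cytokine of the nucleus, had an effect of 0.36 under TPA, which did not pass the test, of -3.61 under NM-203 and of -2.01 under Min-U-Sil 5, and the difference from NM-203 was 3.97 ± 0.33 (SE, adjusted p = 1.0e-08). Tgm2, a crosslinking transglutaminase, had an effect of 1.14, -2.46 and -1.74, so that it rose under TPA and fell under both silicas. Chil1, a chitinase-like glycoprotein, did the same with 1.45, -1.67 and -1.58. Ces1f, a carboxylesterase, had an effect of 0.85, -2.41 and -1.49. Ccn1, a matricellular target of SRF and YAP, went the opposite way. The log2 effect was -1.51 under TPA and 1.38 under NM-203, a difference of -2.89 ± 0.44 (adjusted p = 2.5e-05). Under Min-U-Sil 5 it was 0.83, which did not pass the test (adjusted p = 0.0501). The TPA effect differed from that by -2.34 (adjusted p = 9.6e-04). Saa3 rose by 1.94 under TPA and by 4.92 and 3.97 under the silicas, and Car6, a secreted carbonic anhydrase, by 0.96, 4.19 and 4.16. Selenbp1 and Nid2, not called under TPA (-0.52 and 0.03), had effects of -4.20 and -3.29 under NM-203. Doses of TPA and silica are in different units, so these values compare the exposures as given.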

How the data were processed

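Total RNA was labelled with Cy3 and hybridised to 1-colour Agilent mouse arrays. The deposited scanner files hold a processed intensity per spot, background-subtracted by Agilent Feature Extraction 11.0.1.1, per the submitters' processing notes and the file headers. The authors' deposited value table, on a log2 scale whose making is not given in the sources used here, served as an alternative. Control and outlier spots were left out, spots of a probe were averaged as log2 intensity minus the array's 75th percentile, and the brightest probe above background on at least 3 of 4 arrays of a group stood for a gene. Of 56605 probes, 32994 were given a gene symbol by matching the accession in the files to RefSeq transcripts. Among 108 named genes with several probes, 17 had probes that differ in sign. limma 3.58.1 in R 4.3.3 fitted 9 group means over 36 arrays (27 residual degrees of freedom), without a replicate or slide block. With 4 arrays per group, their number limits the precision. The scripts were tested on simulated data. Genes named were the 15 largest rises and 15 largest falls with no overlap, up to 4 called genes per direction of each list, all measured members of 8 lists tied to TPA signalling, and the 5 largest differences from each silica in each direction, without unnamed gene models. Those not above background in both groups are described only where stated, and some genes are not reported here. The members and lists were chosen with earlier results of these data known. Figures were drawn with matplotlib.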

Additional observations from a re-analysis of the deposited data

Results flagged for a closer look

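In 20 of 390 groups of 4 arrays (the TPA and the DMSO group of each of 195 genes named in the text), 1 array stood apart from the other 3 by Dixon's criterion, for which chance gives about 1 in 20. Of these, 6 were in TPA groups and 14 in DMSO groups, 6 of them DMSO replicate 1 and 6 DMSO replicate 3. The values are log2 signals relative to the 75th percentile, each with the range of the other 3 arrays. Cav1 was 0.33 on TPA replicate 1, against 0.58 to 0.60. On DMSO replicate 1, Ccl17 read -2.39, with the others at -2.21 to -2.19. For Ccnd3, DMSO replicate 3 stood at 3.62 and the others at 3.69 to 3.70. Cx3cl1 was 3.50 on DMSO replicate 4, against 3.18 to 3.23. On DMSO replicate 3, Dusp10 read -2.06, with the others at -1.96 to -1.95. For Ereg, DMSO replicate 1 stood at -2.76 and the others at -2.46 to -2.40. Fdps was 4.34 on DMSO replicate 1, against 4.69 to 4.69. On TPA replicate 2, Hk2 read -1.31, with the others at -0.97 to -0.96. For Nr4a2, TPA replicate 3 stood at -0.45 and the others at -0.80 to -0.75. Nusap1 was -1.24 on DMSO replicate 1, against -0.78 to -0.73. On TPA replicate 2, Oas3 read -1.32, with the others at -0.90 to -0.85. For Omd, DMSO replicate 3 stood at -1.20 and the others at -1.66 to -1.60. P2ry14 was -5.29 on DMSO replicate 3, against -7.44 to -7.19. On TPA replicate 3, Prkcd read 1.79, with the others at 2.01 to 2.06. Prkce was -1.42 on DMSO replicate 3, against -2.85 to -2.73. For Prkci, DMSO replicate 1 stood at 2.50 and the others at 2.38 to 2.39. Prl3d1 was -3.55 on DMSO replicate 3, against -4.21 to -4.11. On DMSO replicate 1, Ptgds read 0.80, with the others at 1.04 to 1.05. For Ptgir, TPA replicate 1 stood at -4.21 and the others at -4.50 to -4.45. Thbs1 was 5.15 on DMSO replicate 4, against 4.75 to 4.79. No explanation was tested.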

How the results depend on the processing

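With arrays scaled on the median of the tested genes there were 1741 calls (965 higher, 776 lower), and 1979 and 429 genes whose TPA effect differed from NM-203 and Min-U-Sil 5. The count of at least 2-fold changes was 406 after normexp and quantile normalization. Within slide 3 it was 379, with 451 calls in all (277 higher, 174 lower). A fit of the 8 arrays with the replicate number as a block gave 1530 calls (852 higher, 678 lower). The numbers were not shown to pair the samples: deviations of same-numbered arrays correlated at 0.0099, 0.072, 0.24 and 0.17, and 2 of 4 fitted their own number best. Array weights gave 6419 calls (2597 higher, 3822 lower) and 4159 differences from Min-U-Sil 5. Without the 3 DMSO arrays of slide 2, an alternative chosen after seeing the data, there were 754 calls (471 higher, 283 lower), 508 of at least 2-fold, and 1997 and 428 differences from NM-203 and Min-U-Sil 5. Leaving out each replicate gave 2834 to 3972 calls, 1230 to 1688 higher, 1560 to 2284 lower, 756 to 1160 of at least 2-fold, and 4074 to 4800 and 1462 to 1906 differences. Of the recomputed counts, 101 lay within 1.5 times the main count, those without one replicate included, and 23 did not. Of the gene values, 6069 kept their side of the threshold, 817 no longer passed, 44 newly passed and 2 reversed. The reversed values were Ncl (-0.077 with the mean over its probes, adjusted p = 0.76) and P2ry14 (-0.068 without the slide 2 DMSO arrays). Direction was compared only where a gene passed in the main test or in the alternative, so sign changes among other values are not counted. Of the 41 gene lists, 15 had a median of at least 0.25 in size, and all 15 kept its sign in every setting run. The median of 2.10 for mitosis ranged from 2.02 to 2.18 without one replicate. The causes were not tested.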
